A study of Arabidopsis thaliana with 9 samples.

Results

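Membrane transporter and ion channel genes were followed in roots of 4-day-old Arabidopsis thaliana seedlings, accession Col-0, of 3 genotypes, with 3 arrays each: a line that overexpresses the basic helix-loop-helix transcription factor bHLH49, a bHLH49 loss-of-function mutant, and wild type. Genes were taken by symbol: a probe set counted when the platform annotation paired it with 1 gene whose symbol starts with one of 28 family stems (ABCA to ABCI, CHX, GLR, CNGC, PUP, ZIP, SWEET, OPT, YSL, PIP, TIP, NIP, KUP, HAK, NHX, SULTR, NRAMP, AAP, AMT and ACA) followed by a digit. This gave 38 genes among the 16722 probe sets with 1 gene and the 38408 probe sets in all. They belong to 6 families, with 14 SWEET sugar transporters, 9 CHX cation/proton exchangers, 9 GLR glutamate receptor-like channels, 3 PUP purine permeases, the zinc transporters ZIP6 and ZIP9, and the metal transporter NRAMP5. For the other 22 stems the annotation paired no probe set with 1 gene, so ABC transporters, aquaporins, CNGC channels, potassium, sulphate, ammonium and amino acid carriers were not analysed here. NCBI RefSeq (assembly TAIR10.1) has 344 genes whose symbols start with these stems, 15 of them SWEETs, 23 CHXs and 18 GLRs. By this count of symbols the SWEETs were covered almost fully and the other families in part. Family genes that RefSeq lists under another symbol are not in these counts.

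All plants were raised on Murashige and Skoog (MS) medium in long days, the transgenic seed having been selected with an antibiotic or herbicide. The labels name neither the mutant allele, the promoter of the overexpressor nor the number of independent lines, and they call the tissue both root and root tip. Repeats 1 to 3 of a genotype are not said to come from separate sowings, so p-values here rest on array-to-array spread that may be technical in part. The annotation pairs 0 probe sets with bHLH49 itself, whose transcript was therefore not analysed here. The 9 arrays had nearly the same distribution, with medians from 5.85 to 5.92 on the log2 scale of the deposited values. Of 25 marker genes listed for root and shoot tissues 8 were measured. The root hair genes EXPA7, EXPA18 and PRX44 and the endodermal receptor gene SGN3 were bright on every array. Of the 3 xylem markers 0 were measured, of the 3 phloem markers only SWEET11, and of the 4 root cap markers only RCPG. RCPG, a polygalacturonase gene of the root cap, was the 1 measured marker to pass the test, with log2 values of 8.34, 8.04 and 8.15 in the overexpressor and 7.50, 7.26 and 6.94 in the mutant, against 6.50, 6.74 and 6.58 in wild type. It was called for overexpressor against wild type (limma log2 difference 1.57, adjusted p = 0.00358) and for overexpressor against mutant (0.94, adjusted p = 0.0221), and not for mutant against wild type (0.63, adjusted p = 0.365), although all mutant arrays were above all wild-type arrays. The root hair and endodermal markers were not called. Of all probe sets, 12.4% did not overlap, in either direction, for mutant against wild type and 19.5% for overexpressor against wild type. Several root hair and endodermal markers lay below wild type without overlap. For mutant against wild type these were EXPA18 (-0.37), EXPA7 (-0.18) and SGN3 (-0.15), while PRX44 (-0.16) overlapped. For overexpressor against wild type they were EXPA7 (-0.19), PRX44 (-0.22) and SGN3 (-0.15), while EXPA18 (-0.06) overlapped. The part of root cap, root hair or endodermal tissue in the results below was not tested.

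Roots take up minerals from the soil solution, move them towards the xylem and receive sugar from the shoot through the phloem. SWEET proteins are uniporters that let glucose, fructose or sucrose run down its gradient, either out of a cell or across the vacuolar membrane. CHX proteins exchange potassium or sodium for protons, largely at internal membranes, and many are known from pollen. GLR proteins are cation channels gated by amino acids that pass calcium, and those of clade 3 carry wound signals over long distances. ZIP and NRAMP proteins import divalent metals such as zinc, iron and manganese, and PUP proteins carry purines and cytokinin bases. In RNA from root samples of many cell types, fewer cells of a type and less RNA per cell cannot be told apart.

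None of the 38 genes passed the test in any comparison. With limma and adjustment over all probe sets, 0 of 38 were called (adjusted p below 0.05) for overexpressor against wild type, where 1.35% of all probe sets were. The count was 0 for mutant against wild type, where 0.0234% of all probe sets were called, and 0 for overexpressor against mutant, against 1.83%. The moderated F test over the 3 genotypes likewise called 0, against 1.53% of all probe sets. With 38 genes each of these background shares amounts to less than 1 gene, so a count of 0 does not set the transporter genes apart. At an unadjusted p below 0.05 limma found 1, 4 and 4 of the 38 genes in the 3 comparisons in that order, or 2.63%, 10.5% and 10.5%, beside 13.6%, 8.44% and 15.1% of all probe sets.

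The fit gave an interval for the difference in array signal of each gene. The 95% interval of the log2 difference, which is per gene and not widened for the number of genes, lay within 2-fold in both directions for 37 of 38 genes in each comparison. SWEET11 was the exception each time. These 37 include 15 genes with means below the lower quartile of the arrays in every genotype, called dim below, whose signal was not shown to stand above background, so that their intervals set no bound on a change in transcript. Of the other 23 genes, 22 had intervals within 2-fold in each comparison. Without SWEET11, the intervals reached from -0.62 (SWEET3) to 0.74 (SWEET1) for overexpressor against wild type, from -0.85 (ZIP9) to 0.88 (CHX16) for mutant against wild type, and from -0.78 (CHX16) to 0.72 (ZIP9) for overexpressor against mutant. Intervals lay within 1.5-fold for 19, 17 and 16 of the 23 genes that were not dim, in the same order of comparisons. The median log2 difference of the 38 genes was 0.01, -0.01 and 0.02, and the median over all probe sets was -0.01, 0.00 and -0.01.

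**Figure D1:**
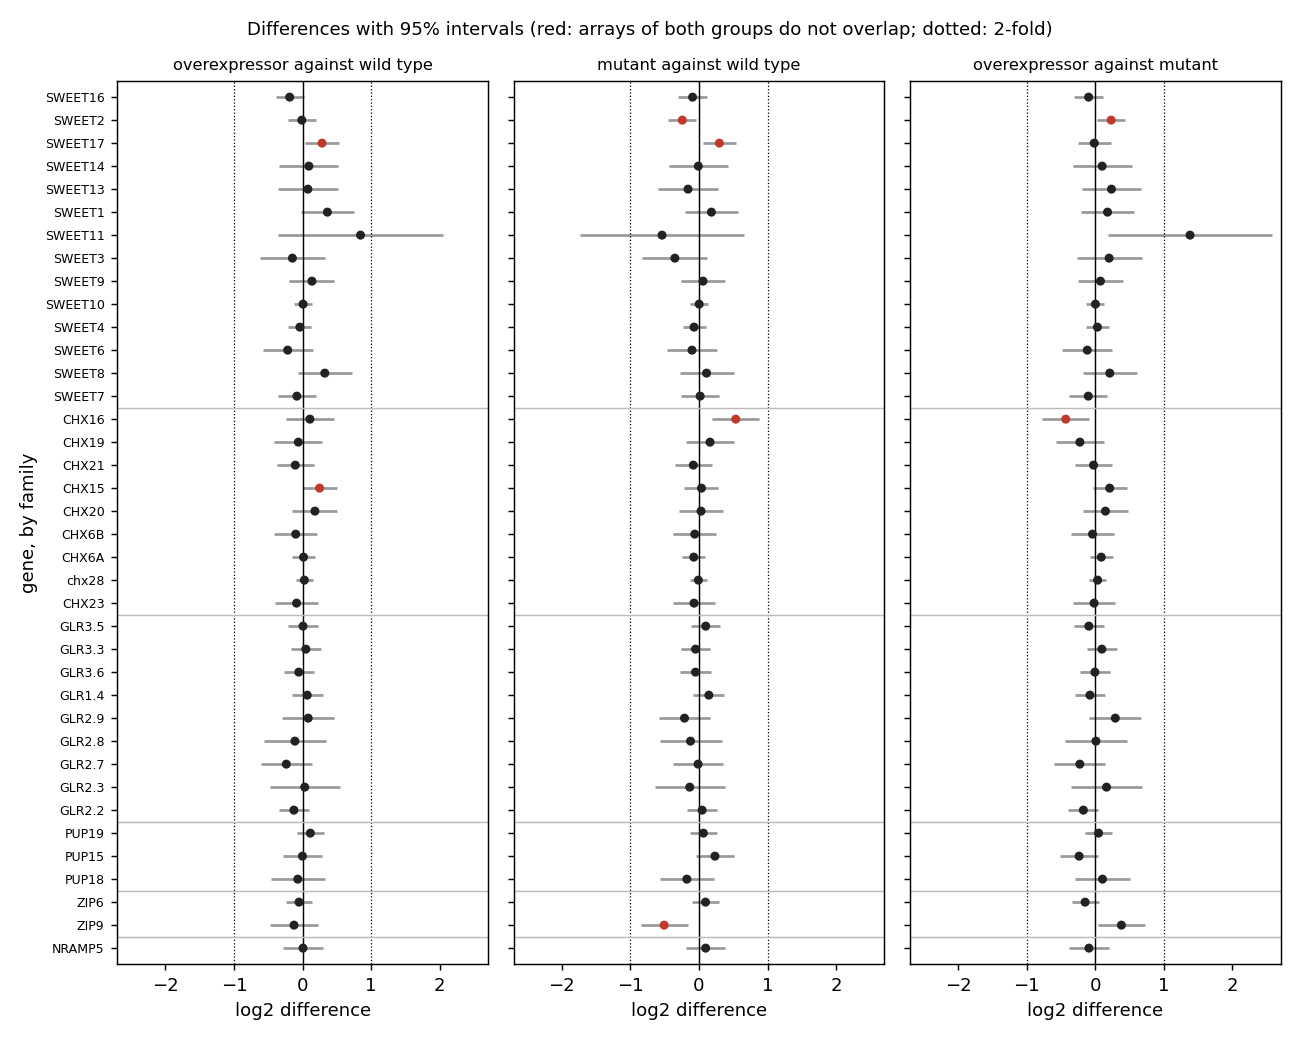
Log2 difference (point) and its 95% interval (bar) for each of the 38 genes, by family, in the 3 comparisons; red points mark genes whose arrays of both groups do not overlap, and dotted lines mark 2-fold. Apart from SWEET11, every interval lies between -0.85 and 0.88.

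Brightness on the arrays differed between and within families. The label dim is used for a gene whose mean in each genotype lay below 3.68, the median lower quartile of the arrays. By this mark 15 of the 38 genes (39.5%) were dim, against 23.0% of all probe sets and 27.6% of those with 1 gene. They were 6 SWEETs (SWEET4, SWEET6, SWEET7, SWEET8, SWEET9 and SWEET10), 5 CHXs (CHX6A, CHX6B, CHX20, CHX23 and chx28), GLR2.2, GLR2.3, PUP18 and NRAMP5. SWEET16 and CHX16 lay above the upper quartile of the arrays, 8.01, in every genotype. Brightness also depends on the probes of a set, so these marks describe the signal and are not used to rank genes by transcript amount.

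Some genes, dim or not, had identical values on several arrays. In NRAMP5 the same value, 3.11, stood on 5 of 9 arrays, and in SWEET4 the value 2.98 stood on 7 of 9. In PUP19, which was not dim, 5.84 stood on 4 of 9. A value repeated exactly between arrays was found for 21 of the 38 genes (55.3%) and for 53.7% of all probe sets with 1 gene. The SD within genotypes had a median of 0.17 over the 38 genes, from 0.04 (chx28) to 0.72 (SWEET11). The median was 0.115 over all probe sets with 1 gene and 0.1335 over all probe sets.

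**Figure D2:**
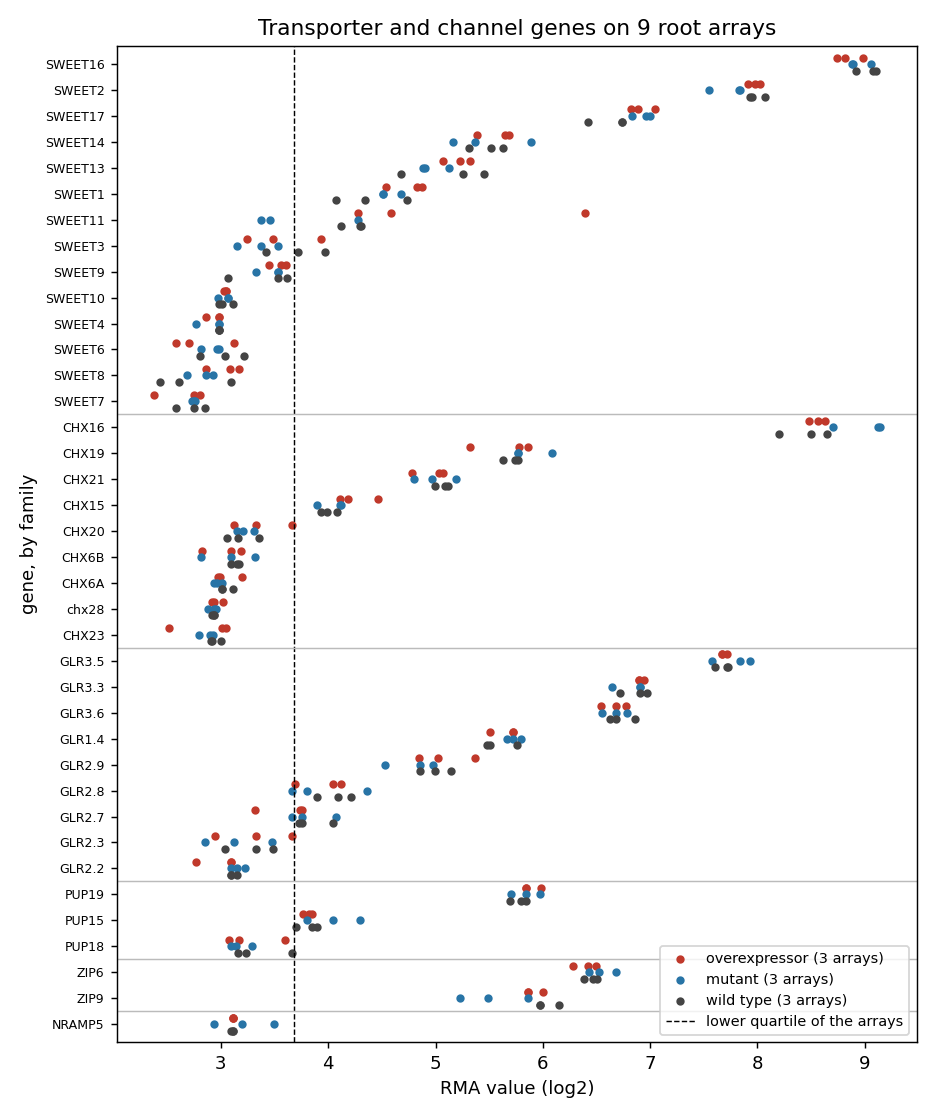
Deposited log2 (RMA) values of the 38 genes on all 9 arrays, grouped by family, with the overexpressor above the mutant and wild type in each row. The dashed line is the lower quartile of the arrays, 3.68; the single overexpressor point at 6.39 is SWEET11.

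Of the vacuolar sugar transporters, SWEET17, which carries fructose across the vacuolar membrane of root cells, stood higher in both altered lines than in wild type without passing the test. It had log2 values of 6.82, 7.05 and 6.89 in the overexpressor and 7.002, 6.835 and 6.959 in the mutant, against 6.42, 6.74 and 6.74 in wild type. All 6 arrays of both altered lines were above all 3 wild-type arrays, although the nearest of them differed by less than 0.1. The log2 difference from wild type was 0.28 ± 0.11 in the overexpressor (SE, 95% interval 0.04 to 0.53; limma adjusted p = 0.293) and 0.30 ± 0.11 in the mutant (0.05 to 0.54; limma adjusted p = 0.532). Without wild-type replicate 1, the lowest array, the differences were 0.178 and 0.192. These 2 differences share the same 3 wild-type arrays, and between overexpressor and mutant SWEET17 stood at -0.01 (-0.26 to 0.23).

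SWEET2, which holds glucose in the root vacuole, stood lowest in the mutant. Its log2 values were 7.98, 7.91 and 8.02 in the overexpressor and 7.83, 7.55 and 7.84 in the mutant, against 7.93, 8.07 and 7.95 in wild type. The 3 mutant arrays lay below all 6 others. The difference of mutant from wild type was -0.24 ± 0.09 (95% interval -0.45 to -0.04; limma adjusted p = 0.558) and that of overexpressor from mutant was 0.23 ± 0.09 (0.02 to 0.44; adjusted p = 0.275). Without mutant replicate 2, the lowest array, they were -0.148 and 0.137. SWEET16, the third vacuolar sugar transporter, averaged 8.85 ± 0.13 in the overexpressor, 8.94 ± 0.10 in the mutant and 9.03 ± 0.10 in wild type (SD, n = 3 each), with overlapping arrays and a difference of overexpressor from wild type of -0.19 (-0.40 to 0.02).

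SWEET11, a sucrose exporter known for loading the phloem of leaves, was the most variable gene of the set. Its log2 values were 4.58, 4.28 and 6.39 in the overexpressor, 4.28, 3.37 and 3.46 in the mutant, and 4.30, 4.31 and 4.12 in wild type. Overexpressor replicate 3 stood 1.81 above the next highest of the 9 arrays, while both other overexpressor arrays lay close to wild type. The difference of overexpressor from wild type was 0.84 ± 0.52 (95% interval -0.36 to 2.04; limma adjusted p = 0.54), and it was 0.19 without overexpressor replicate 3. For overexpressor against mutant it was 1.38 (0.18 to 2.58; adjusted p = 0.261), and 0.73 without that array. For mutant against wild type it was -0.54 ± 0.52 (-1.74 to 0.66; adjusted p = 0.821), with mutant replicate 1 inside the wild-type range and the other two mutant arrays below it. This difference was -0.826 without mutant replicate 1.

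A gap of at least 1 above all other arrays, a size chosen after the SWEET11 values were seen, was rare among probe sets with 1 gene. On overexpressor replicate 3 only SWEET11 and AT2G22930 had it (5.68 on that array against at most 4.06 elsewhere), and on the other 8 arrays 0 or 1 probe sets each. Over all probe sets the count was 7 on overexpressor replicate 3, and from 2 (mutant replicate 3) to 41 (wild-type replicate 1) on the others. The shoot marker RCA was at 7.80 on that array, against 7.64 and 7.60 on the other overexpressor arrays and at most 7.79 elsewhere, while LHCB4.1 was at 6.51, inside the range of the other arrays. The part of shoot or vascular tissue in the SWEET11 value was not tested.

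SWEET1, a plasma membrane glucose uniporter, had log2 values of 4.83, 4.87 and 4.54 in the overexpressor and 4.51, 4.51 and 4.68 in the mutant, against 4.35, 4.08 and 4.73 in wild type. The highest wild-type array lay above the lowest overexpressor array, and the difference of overexpressor from wild type was 0.36 (-0.02 to 0.74; limma adjusted p = 0.393). SWEET8, needed for the pollen wall, was dim at 3.17, 2.86 and 3.08 in the overexpressor, 2.68, 2.86 and 2.93 in the mutant and 2.61, 2.43 and 3.10 in wild type. Its groups overlapped, with a difference of overexpressor from wild type of 0.32 (-0.07 to 0.72).

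SWEET13 and SWEET14, closely related sucrose transporters that also carry gibberellin, had overlapping arrays in every comparison. SWEET13 stood at 5.23, 5.07 and 5.32 in the overexpressor, 4.89, 5.13 and 4.90 in the mutant and 5.26, 5.45 and 4.68 in wild type. SWEET14 averaged 5.58 ± 0.16, 5.475 ± 0.38 and 5.48 ± 0.16 in overexpressor, mutant and wild type (SD, n = 3 each). SWEET3 had values of 3.49, 3.24 and 3.94 in the overexpressor, 3.15, 3.53 and 3.38 in the mutant and 3.72, 3.97 and 3.42 in wild type, and its mean lay below the lower quartile in both altered lines. Its difference of mutant from wild type was -0.35 (-0.82 to 0.12). SWEET4, SWEET6, SWEET7, SWEET9 and SWEET10, all dim, differed from wild type by -0.22 to 0.14 in the overexpressor and by -0.10 to 0.06 in the mutant.

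As a family, the 14 SWEETs had a median log2 difference of 0.04 for overexpressor against wild type, with 8 above 0 and 6 below. For mutant against wild type the median was -0.04, with 6 above 0 and 8 below. For overexpressor against mutant it was 0.09, with 10 above 0 and 4 below, where 47.1% of all probe sets were above 0. These counts describe the family and were not tested.

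Among the CHX exchangers, CHX16 was bright and stood highest in the mutant. Its SD within genotypes was 0.20, against a median of 0.17 over the 38 genes. CHX16 belongs to the group of exchangers that set potassium and proton levels of internal compartments. Its log2 values were 8.57, 8.63 and 8.48 in the overexpressor and 8.70, 9.14 and 9.12 in the mutant, against 8.50, 8.20 and 8.65 in wild type. All 3 mutant arrays lay above the other 6, the lowest of them by less than 0.1. The difference of mutant from wild type was 0.54 ± 0.15 (95% interval 0.19 to 0.88), or 1.45-fold (limma adjusted p = 0.446), and it ranged from 0.41 to 0.68 with 1 array left out. Overexpressor against mutant gave -0.43 ± 0.15 (-0.78 to -0.08; adjusted p = 0.225).

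CHX15 had its arrays narrowly apart from wild type in the overexpressor. Its log2 values were 4.18, 4.11 and 4.46 in the overexpressor and 4.11, 3.89 and 4.12 in the mutant, against 3.94, 3.99 and 4.08 in wild type. The overexpressor arrays were above those of wild type, the nearest being 4.106 (overexpressor replicate 2) and 4.082 (wild-type replicate 3). Mutant replicates 1 and 3, at 4.106 and 4.117, also lay above all wild-type arrays. The difference of overexpressor from wild type was 0.25 ± 0.11 (-0.00 to 0.49; limma adjusted p = 0.369). CHX19 averaged 5.65 ± 0.29, 5.87 ± 0.18 and 5.71 ± 0.07 in overexpressor, mutant and wild type, and CHX21, a sodium-linked exchanger of roots, 4.96 ± 0.16, 4.99 ± 0.20 and 5.07 ± 0.06 (SD, n = 3 each). Both overlapped in all comparisons. The 5 dim exchangers CHX6A, CHX6B, CHX20, CHX23 and chx28 differed from wild type by -0.10 to 0.18 in the overexpressor and by -0.07 to 0.03 in the mutant. The 9 CHX genes had medians of 0.01 for overexpressor against wild type, -0.01 for mutant against wild type and -0.02 for overexpressor against mutant.

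The glutamate receptor-like channels held no gene whose groups stood apart. GLR3.3 and GLR3.6, which carry calcium and electrical signals away from wounds, averaged 6.91 ± 0.03 and 6.67 ± 0.11 in the overexpressor, 6.82 ± 0.15 and 6.67 ± 0.12 in the mutant, and 6.87 ± 0.13 and 6.72 ± 0.12 in wild type (SD, n = 3 each). Their differences from wild type were 0.05 and -0.06 in the overexpressor and -0.05 for both in the mutant, and the 95% intervals of all 4 lay between -0.28 and 0.26. GLR3.5 stood 0.01 (-0.21 to 0.22) from wild type in the overexpressor and 0.10 (-0.12 to 0.31) in the mutant. GLR1.4, which acts as a methionine-gated channel when expressed in frog oocytes, stood at 0.07 (-0.16 to 0.29) and 0.14 (-0.08 to 0.37).

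The clade 2 channels lie in 2 rows of neighbouring genes, GLR2.3 next to GLR2.2 (AT2G24710 and AT2G24720) and GLR2.9, GLR2.8 and GLR2.7 side by side (AT2G29100, AT2G29110 and AT2G29120). GLR2.2 and GLR2.3 were dim and stood at -0.13 and 0.03 for overexpressor against wild type, and at 0.05 and -0.13 for mutant against wild type. GLR2.7, GLR2.8 and GLR2.9 admit calcium when pathogen patterns are sensed. GLR2.9 had log2 values of 5.37, 5.02 and 4.84 in the overexpressor and 4.98, 4.53 and 4.85 in the mutant, against 4.99, 4.85 and 5.14 in wild type, with overlapping groups. For overexpressor against wild type the 3 neighbours stood at 0.08 (-0.30 to 0.46) for GLR2.9, -0.11 (-0.56 to 0.34) for GLR2.8 and -0.24 (-0.61 to 0.13) for GLR2.7. Near-identical copies may share probes, and the probe sequences were not used here, so signals of neighbours may not be wholly separate. In the family of 9, the arrays of both groups overlapped for every gene in every comparison, and the median differences were 0.01, -0.05 and -0.01 for overexpressor against wild type, mutant against wild type and overexpressor against mutant.

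Other neighbours among the 38 genes were CHX6B and CHX6A (AT1G08135 and AT1G08140), both dim, and SWEET10 and SWEET13 (AT5G50790 and AT5G50800). SWEET10 was dim on all arrays, between 2.98 and 3.11, while its neighbour SWEET13 was not.

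ZIP9 was the metal transporter with the largest difference. It is a zinc transporter gene induced when zinc is scarce. Its log2 values were 5.998, 5.864 and 5.864 in the overexpressor and 5.864, 5.49 and 5.23 in the mutant, against 5.97, 6.15 and 5.98 in wild type. Mutant replicate 1 had the same value as overexpressor replicates 2 and 3. The mutant arrays lay below wild type without overlap and also spread more, with an SD of 0.32 against 0.10 in wild type (n = 3 each). The difference of mutant from wild type was -0.51 ± 0.15 (95% interval -0.85 to -0.16; limma adjusted p = 0.473), from -0.675 to -0.356 with 1 array left out. Overexpressor against mutant gave 0.38 ± 0.15 (0.04 to 0.72; adjusted p = 0.276). The related ZIP6 stood at -0.05 (-0.25 to 0.14) for overexpressor against wild type and 0.10 (-0.10 to 0.29) for mutant against wild type. NRAMP5 was dim and stood at 0.01 and 0.10 in these 2 comparisons.

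Of the purine permeases, PUP19 averaged 5.89 ± 0.08 in the overexpressor, 5.84 ± 0.14 in the mutant and 5.78 ± 0.08 in wild type (SD, n = 3 each), and its arrays overlapped throughout. PUP15 had log2 values of 3.85, 3.82 and 3.77 in the overexpressor and 4.30, 3.80 and 4.04 in the mutant, against 3.70, 3.85 and 3.90 in wild type. Its difference of mutant from wild type was 0.23 (-0.05 to 0.51) and that of overexpressor from mutant -0.24 (-0.51 to 0.04). PUP18 was dim and differed from wild type by -0.07 in the overexpressor and -0.18 in the mutant.

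**Figure D3:**
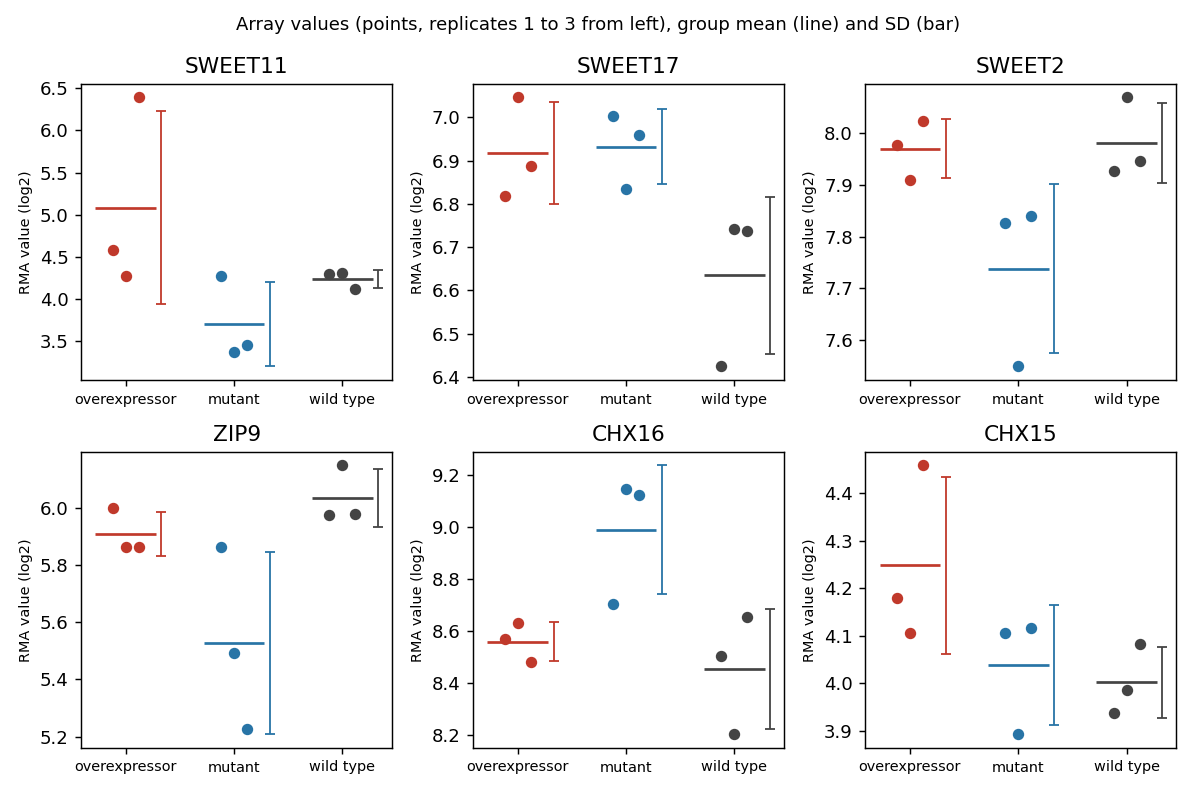
Log2 (RMA) values on each array (points, replicates 1 to 3 from left), group mean (line) and SD (bar, n = 3) of SWEET11 and of the 5 genes whose arrays did not overlap in at least 1 comparison, with overexpressor, mutant and wild type from left to right; each vertical axis has its own scale and does not start at 0. SWEET11 is high on overexpressor replicate 3 only, and the mutant lies lowest in SWEET2 and ZIP9 and highest in CHX16.

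The share of genes without overlap lay below that of all probe sets, for mutant against wild type only slightly. This contrast was not tested and is not read as a trait of the transporter genes. For overexpressor against wild type the arrays of both groups did not overlap for 2 of 38 genes (SWEET17 and CHX15, 5.26%), against 19.5% of all probe sets. For mutant against wild type it was 4 genes (CHX16 and SWEET17 higher, SWEET2 and ZIP9 lower, 10.5%), against 12.4%, and for overexpressor against mutant 2 genes (SWEET2 higher, CHX16 lower, 5.26%), against 20.5%. Dim probe sets stood apart less often: for overexpressor against wild type 693 of 8820 did, beside 6800 of the 29588 that were not dim. None of the 15 dim genes stood apart in any comparison. Dim genes made up 39.5% of the 38, against 23.0% of all probe sets. Of the 23 genes that were not dim, 2, 4 and 2 stood apart in the same order of comparisons. Among the 29588 probe sets that were not dim, 6800, 4087 and 7080 did. The part of brightness in the low shares was not tested.

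**Figure D4:**
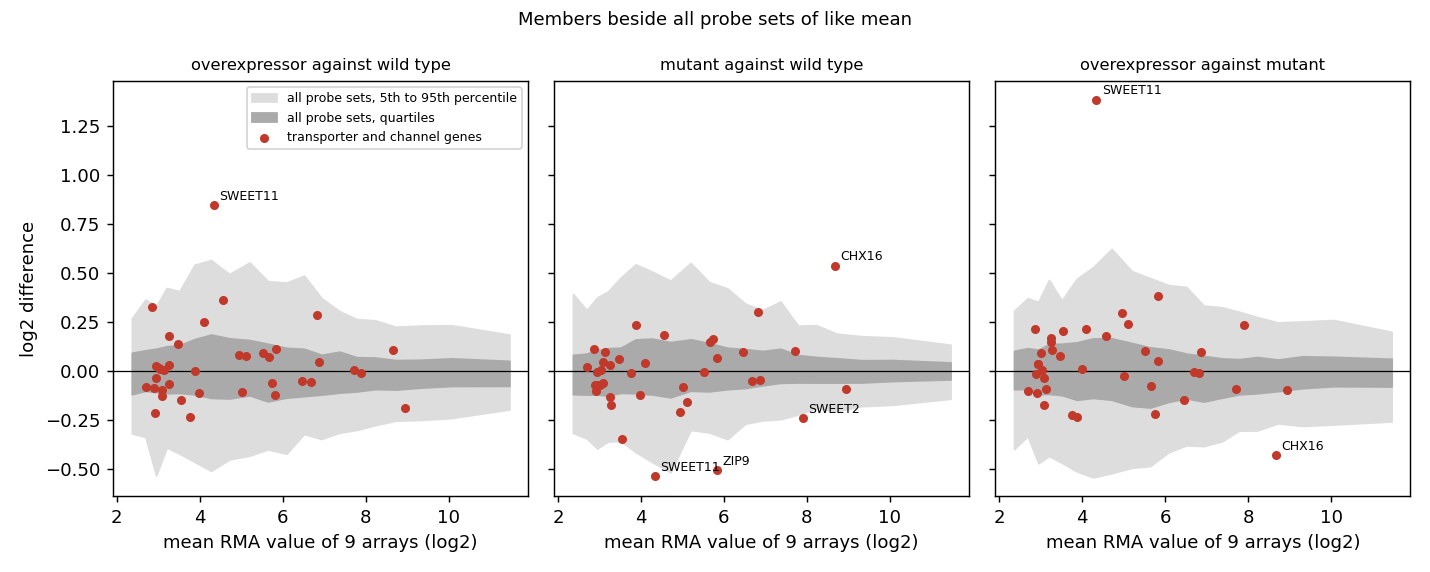
Log2 difference of each of the 38 genes (red) against its mean log2 value over 9 arrays, with the quartiles (dark grey) and the 5th to 95th percentiles (light grey) of all 38408 probe sets in 20 bins of like mean. Named points lie outside the light band, as 10% of all probe sets do by construction: 1 of 38 genes for overexpressor against wild type, 4 for mutant against wild type and 2 for overexpressor against mutant.

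A short list of other transport genes, taken by name in the same way, gave 5 genes, all with a probe set because the names were sought in the annotation. Of these, 0 were called in each comparison, which at the shares of 1.35%, 0.0234% and 1.83% of all probe sets says nothing about the list. VHA-A1, VHA-A2 and VHA-A3, membrane subunits of the proton pumps of endosomes and vacuole, stood at 0.03, 0.06 and 0.08 for overexpressor against wild type and at -0.01, 0.03 and -0.00 for mutant against wild type. The manganese transporter gene MTP11 stood at -0.01 and -0.14 in the same comparisons, and the nitrate transporter gene NRT2.5, which was dim, at -0.00 and 0.05.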

How the data were processed

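Total RNA from roots of 9 samples was measured on single-channel arrays. The authors deposited log2 values, 1 per probe set and array; per the submitters' processing notes these come from RMA, with no version named, and nothing else is given in the sources used here. The 9 columns had like quartiles and 0 missing values, and were used as they stand. Array data have no read depth, so the number of arrays limits precision.

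Genes were named through GEO's platform annotation and matched by gene number to RefSeq (TAIR10.1), all 38 with the same symbol. Linear models with 1 mean per genotype were fitted to all 38408 probe sets and all 9 arrays (limma 3.58.1, R 4.3.3; 6 residual and 1.85 prior degrees of freedom), with Benjamini-Hochberg adjustment across the whole table. Levels are mean log2 values with the SD, and differences carry the SE of the fit. The fit was also run on simulated independent values with planted changes of 2-fold and more. That run does not bear on smaller differences or on repeats that are technical in part.

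The genes and lists were chosen with earlier results of these data known. Named are all called genes, the 10 largest differences each way per comparison and the largest of each family, with array values for the 5 largest differences per comparison. Alternatives were the repeat number as a block, another variance prior, 6 arrays only, 2 normalizations, a filter at the 25th percentile of the mean, probe sets with 1 gene only, and each array left out. Sequences of probes, promoters and proteins were not used.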

Additional observations from a re-analysis of the deposited data

How the results depend on the processing

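The count of transporter genes called was 0 under every one of the 13 alternatives of each comparison and the 15 of the F test (limma). Over all probe sets tested, the share called under these alternatives was 0.453% to 2.61% for overexpressor against wild type, 0.0026% to 0.0417% for mutant against wild type, 0.677% to 3.27% for overexpressor against mutant and 0.492% to 2.81% for the F test, so the counts of 0 show no stability of the transporter genes. The smallest adjusted p of any of these genes lay between 0.147 and 0.411 for overexpressor against wild type, between 0.252 and 0.7 for mutant against wild type, between 0.0775 and 0.348 for overexpressor against mutant and between 0.0653 and 0.354 for the F test, and 0 to 3, 3 to 7, 1 to 4 and 2 to 6 genes had an unadjusted p below 0.05. The filter at the 25th percentile left 22 of the 38 genes. With 1 array left out, the median log2 difference of the 38 genes ranged from -0.0358 to 0.0247, from -0.0446 to 0.0102 and from -0.0106 to 0.06 in the order of comparisons above, the ends lying without wild-type replicate 1 and overexpressor replicate 2, without wild-type replicate 1 and mutant replicate 2, and without mutant replicate 2 and overexpressor replicate 1.

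Of 60 single-gene differences named, 13 changed sign without 1 array and 0 under any other alternative. None of the 13 had passed the test, and each refit has fewer samples. For overexpressor against wild type these ran from -0.0326 to 0.239 in SWEET9, -0.0189 to 0.207 in CHX16, -0.197 to 0.0167 in GLR2.8, -0.339 to 0.00677 in SWEET3, -0.176 to 0.00355 in CHX6B and -0.182 to 0.0833 in CHX23. For mutant against wild type they ran from -0.0296 to 0.302 in SWEET8, -0.385 to 0.00285 in SWEET13, -0.046 to 0.235 in NRAMP5, -0.298 to 0.0146 in GLR2.3 and -0.333 to 0.0152 in GLR2.8. For overexpressor against mutant they ran from -0.183 to 0.0331 in SWEET7 and -0.0111 to 0.348 in GLR2.3.

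The repeat numbers did not pair the arrays: deviations from the group means of arrays with the same number correlated between -0.0881 and 0.0318 over all probe sets, and 2, 2 and 3 of 6 arrays per comparison correlated best with their own number. With the replicate block 0 of the 38 genes were called in each comparison and by the F test, with medians of 0.00577, -0.0107 and 0.021. Over all probe sets the block called 200, against 520 without it, for overexpressor against wild type, 1 against 9 for mutant against wild type and 347 against 702 for overexpressor against mutant, so 0 of 38 is close to these shares too.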
